A study of Mus musculus with 12 samples.

Results

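Lin28a, Lin28b, Trim71, Hmga2, Igf2bp1, Igf2bp2 and Igf2bp3, the Lin28 genes and a set of classic targets of the let-7 microRNAs, were compared across 4 iPS (induced pluripotent stem) cell lines of the mouse. They were found through the array's gene annotation, as the probe sets (groups of short probes that read the RNA of 1 gene) assigned to these 7 genes, and the brightest probe set over all arrays stood for a gene. Of the 7 genes, 6 were measured, through 7 probe sets, among 19938 genes with a probe set of their own. The expression of Igf2bp2 was not analysed here. In 1 line, LiPS-50, the Lin28 genes, Trim71 and Igf2bp3 were lower than in each of the other 3 lines and Hmga2 was higher, while no measured member passed the test in any pair of LiPS-45, LiPS-57 and LiPS-47.

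All 4 lines had been made from embryonic fibroblasts of C57BL/6J mice with 3 factors that the labels do not name, and were grown in embryonic stem cell medium. LiPS-45 and LiPS-57 are labelled as having tetraploid complementation competence, the ability of the cells to build an animal when placed into a host embryo made tetraploid. LiPS-47 and LiPS-50 are labelled as lacking it. RNA of 3 biological repeats of each line, here called cultures, was hybridised to 1 array each, which gives 12 arrays. Each line is a single line, so a contrast by competence rests on 2 lines against 2. The labels do not say whether feeder cells were present. Values are given as log2(intensity + 1) of the deposited probe set intensities, so a difference of 1 is close to a 2-fold change for all but dim genes.

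Lin28a and Lin28b are RNA-binding proteins of early embryonic and germ cells that bind the precursors of let-7 and block their cutting into the mature microRNA. Mature let-7 in turn represses Lin28a and Lin28b themselves and a set of growth-related genes, among them Hmga2, Trim71 and the Igf2bp family. Pluripotent cells hold much Lin28 and little mature let-7, and the balance is reversed as cells differentiate.

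The let-7 sequences are shown because they define what these genes share: Lin28 acts on the hairpins, and targets carry matches to the seed, bases 2 to 8 of the mature strand. All 9 mature let-7 and miR-98 names from the 5′ arm had the seed GAGGUAG, which 11 of 1679 mature names in the RefSeq microRNA table (assembly GRCm38.p6) had. The 8 mature strands whose hairpin had a probe set of its own on the array follow, 5′ to 3′, with the seed in capitals.
let-7a-5p (Mirlet7a-1, chr13:48538239-48538260, minus strand): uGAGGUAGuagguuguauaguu
let-7c-5p (Mirlet7c-1, chr16:77599672-77599693, plus strand): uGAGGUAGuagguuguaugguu
let-7d-5p (Mirlet7d, chr13:48536078-48536099, minus strand): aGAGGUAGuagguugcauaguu
let-7e-5p (Mirlet7e, chr17:17830366-17830387, plus strand): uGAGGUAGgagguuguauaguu
let-7f-5p (Mirlet7f-1, chr13:48537889-48537910, minus strand): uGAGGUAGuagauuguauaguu
let-7g-5p (Mirlet7g, chr9:106178846-106178867, plus strand): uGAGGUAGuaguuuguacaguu
let-7i-5p (Mirlet7i, chr10:122985698-122985719, minus strand): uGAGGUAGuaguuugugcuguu
miR-98-5p (Mir98, chrX:151913229-151913250, plus strand): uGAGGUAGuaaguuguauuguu

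Lin28 proteins recognise a GGAG stretch in the loop of many let-7 hairpins. Among the 11 let-7 family hairpins with both arms in the table, 8 had GGAG in the loop between the arms, against 52 of 644 hairpins of all kinds (8.1%). Mirlet7d and Mirlet7i, examples with a loop GGAG, and Mir98, which had none, are printed with the loop GGAG in capitals.
Mirlet7d (chr13:48536012-48536114, minus strand): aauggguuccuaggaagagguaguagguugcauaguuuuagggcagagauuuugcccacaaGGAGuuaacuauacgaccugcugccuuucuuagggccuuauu
Mirlet7i (chr10:122985640-122985724, minus strand): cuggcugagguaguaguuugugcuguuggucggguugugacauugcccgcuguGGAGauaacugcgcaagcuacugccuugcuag
Mir98 (chrX:151913214-151913321, plus strand): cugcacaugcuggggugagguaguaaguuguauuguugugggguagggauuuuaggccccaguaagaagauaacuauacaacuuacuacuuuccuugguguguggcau

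Across the series, arrays of 1 line correlated with r between 0.996 and 0.997 over probe sets and arrays of different lines with r between 0.990 and 0.997. LiPS-50 stood apart. Of 28939 probe sets tested, limma called (adjusted p under 0.05) 16.5% between LiPS-50 and LiPS-45, 15.6% between LiPS-50 and LiPS-57 and 15.8% between LiPS-50 and LiPS-47. The shares were 0.266% for LiPS-45 against LiPS-57, 0.0622% for LiPS-45 against LiPS-47 and 0.159% for LiPS-57 against LiPS-47. Of 14 pluripotency markers, 3 were called higher and 1 lower in LiPS-50 in all 3 comparisons (5.86% and 4.57% of probe sets were). Beside 14.9% of all probe sets, the F-test over the 4 lines called 6 of these 14 markers. Their summed intensity was 22738 to 24035 in the arrays of the other 3 lines and 23182 to 23841 in LiPS-50. The sum hides differences of single markers. All 3 LiPS-50 arrays lay below the other 9 for 4 of the 14 and above them for 4 (9.54% and 8.81% of probe sets did so). Of endoderm markers 2 of 10, and of trophectoderm markers 3 of 10, were called higher in all 3 comparisons, and 1 of 10 of each list lower.

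Lin28a, the form that marks embryonic stem cells, was lower in LiPS-50. Its values were 10.14, 10.16 and 10.13 in the cultures of LiPS-45, 10.19, 10.22 and 10.19 in those of LiPS-57, 10.18, 10.15 and 10.18 in those of LiPS-47, and 9.67, 9.71 and 9.72 in those of LiPS-50. Every LiPS-50 culture lay below all 9 other cultures, and the spread within a line was small (SD 0.0134 to 0.0273, n = 3). Lin28a was lower in LiPS-50 by 1.36-fold than in LiPS-45 (log2 difference -0.44 ± 0.0498 SE, limma adjusted p = 9.64e-05). The difference was -0.51 against LiPS-57 and -0.48 against LiPS-47, or 1.42-fold and 1.39-fold (limma adjusted p = 4.23e-05 and 5.74e-05).

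Lin28b, the paralog of Lin28a that likewise blocks let-7 maturation, showed the largest difference of the 6 members. It read 8.07, 8.12 and 8.21 in the cultures of LiPS-45, 8.03, 8.04 and 7.86 in those of LiPS-57, 7.92, 7.98 and 7.997 in those of LiPS-47, and 6.92, 6.95 and 6.99 in those of LiPS-50. The LiPS-50 cultures lay far below the lowest other culture, a LiPS-57 culture at 7.86. Lin28b was 2.27-fold lower in LiPS-50 than in LiPS-45 (-1.18 ± 0.0661 SE, limma adjusted p = 3.69e-07). Against LiPS-57 and LiPS-47 it was 2.03-fold and 2.01-fold lower (limma adjusted p = 1.40e-06 and 1.45e-06). In size these differences exceeded those of 99.3% to 99.6% of the probe sets in their comparisons.

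Trim71, a let-7 target that binds RNA and acts as a ubiquitin ligase in early embryos, was also lower in LiPS-50, by less. Its values were 10.08, 10.09 and 10.10 in the cultures of LiPS-45, 10.02, 9.98 and 10.02 in those of LiPS-57, 10.15, 9.99 and 10.10 in those of LiPS-47, and 9.89, 9.79 and 9.73 in those of LiPS-50. The LiPS-50 cultures again lay below all 9 others, although the highest of them, 9.89, was close to the lowest LiPS-57 culture at 9.98. The log2 differences were -0.29 against LiPS-45, -0.20 against LiPS-57 and -0.27 against LiPS-47 (SE 0.0614; limma adjusted p = 0.00679, 0.0453 and 0.00896). The call against LiPS-57 held in 7 of 20 alternative settings. It was lost without any 1 of the LiPS-45 or LiPS-57 cultures, the third LiPS-47 culture, or the second or the third LiPS-50 culture (adjusted p 0.0578 to 0.156).

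The Igf2bp genes encode RNA-binding proteins that stabilise and localise messenger RNAs in embryonic tissues. Igf2bp3 read 8.99, 9.10 and 9.05 in the cultures of LiPS-45, 8.98, 8.96 and 8.94 in those of LiPS-57, 9.20, 9.10 and 9.13 in those of LiPS-47, and 8.50, 8.52 and 8.75 in those of LiPS-50. All LiPS-50 cultures were below the other 9. The third of them, at 8.75, was nearer to the lowest other culture, 8.94, than the other LiPS-50 cultures were. The log2 differences were -0.45, -0.37 and -0.55 against LiPS-45, LiPS-57 and LiPS-47 (SE 0.0720; limma adjusted p = 0.00117, 0.00433 and 3.04e-04).

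Igf2bp1 had 2 probe sets, both lower in LiPS-50 but by different amounts. The brighter one read 11.12, 11.14 and 11.21 in the cultures of LiPS-45, 11.23, 11.26 and 11.19 in those of LiPS-57, 11.25, 11.18 and 11.27 in those of LiPS-47, and 11.02, 11.01 and 10.9996 in those of LiPS-50. Its LiPS-50 cultures were below all others, the closest being a LiPS-45 culture at 11.12. By this probe set the log2 difference of LiPS-50 was -0.22 against LiPS-57 and -0.22 against LiPS-47 (SE 0.0543; limma adjusted p = 0.0169 and 0.0145). Against LiPS-45 the difference of -0.15 did not pass (95% interval -0.267 to -0.0302, limma adjusted p = 0.0875). The call against LiPS-57 was lost without the third LiPS-50 culture (adjusted p = 0.0533) or the first or second LiPS-57 culture (0.0525 and 0.0627), and that against LiPS-47 without the third LiPS-47 culture (0.0554). The other probe set ranged over 7.94 to 8.31 for LiPS-45, 8.07 to 8.21 for LiPS-57, 7.85 to 8.06 for LiPS-47 and 7.45 to 7.55 for LiPS-50, again without overlap. It gave log2 differences of -0.62, -0.62 and -0.44 against LiPS-45, LiPS-57 and LiPS-47 (SE 0.0914; limma adjusted p = 7.33e-04, 8.05e-04 and 0.00529). Among the other lines the probe sets differed in sign, with LiPS-45 minus LiPS-47 at -0.074 by the brighter one and 0.17 by the other, neither called.

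Hmga2, a chromatin-binding protein of embryonic and mesenchymal cells and a much-studied let-7 target, went the other way. It read 8.78, 9.05 and 8.80 in the cultures of LiPS-45, 8.81, 8.77 and 8.74 in those of LiPS-57, 8.76, 8.79 and 8.60 in those of LiPS-47, and 9.35, 9.11 and 9.10 in those of LiPS-50. The LiPS-50 cultures were above all 9 others, but the second LiPS-45 culture, at 9.05, came close to them. Hmga2 was 1.24-fold higher in LiPS-50 than in LiPS-45 (0.32 ± 0.0912 SE, limma adjusted p = 0.0336). It was 1.34-fold higher than in LiPS-57 and 1.39-fold higher than in LiPS-47 (limma adjusted p = 0.00836 and 0.00356). The call against LiPS-45 was lost without the first LiPS-50 culture (limma adjusted p = 0.128), without the first LiPS-45 culture (0.115) and without the third (0.12).

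**Figure D1:**
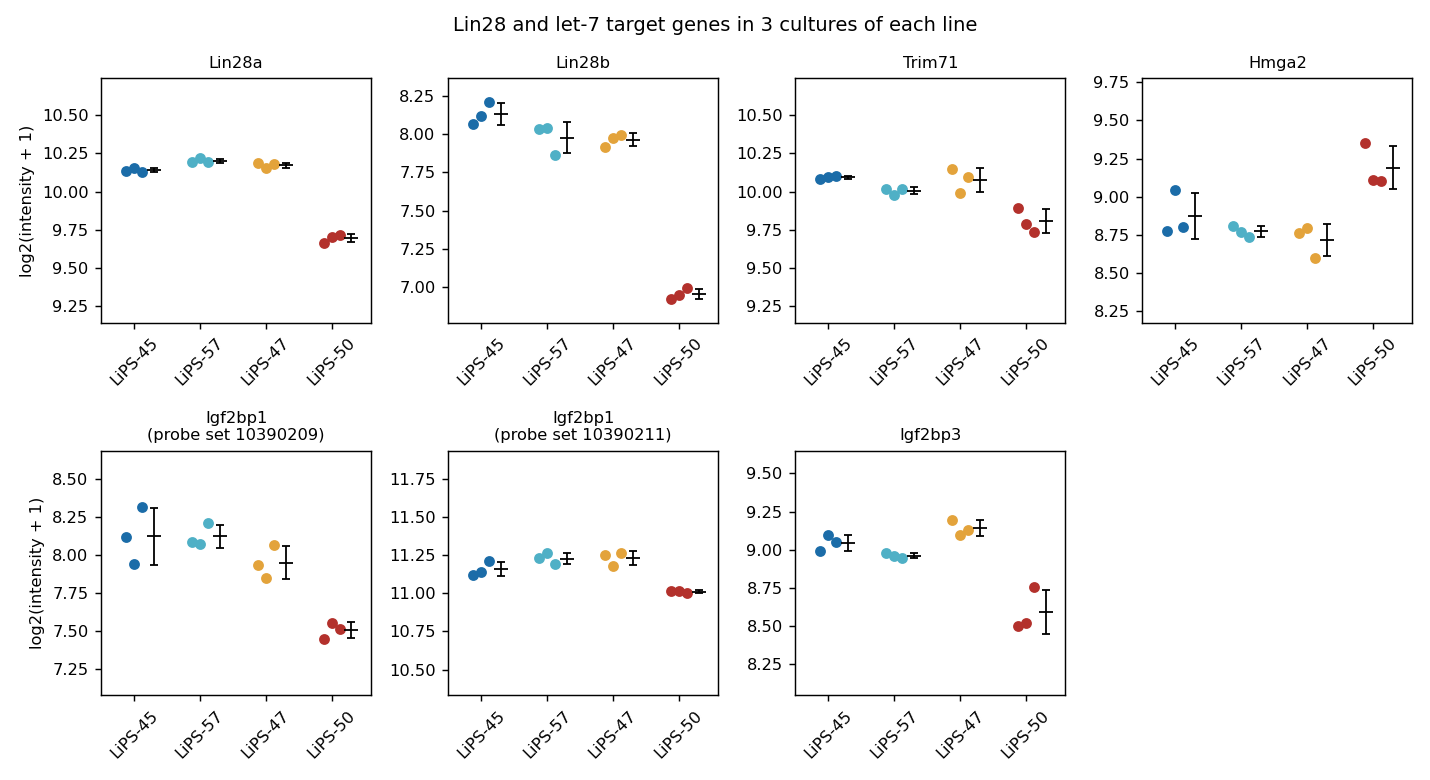
Log2(intensity + 1) of the 7 member probe sets (vertical axis, the same span in each panel) in the 3 cultures of each line (points), with the line mean and SD (bars, n = 3). The red LiPS-50 points lie below all other points for every member except Hmga2, where they lie above.

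Counted over the members, 5 of 6 were called between LiPS-50 and LiPS-45 (4 lower and 1 higher in LiPS-50), beside 16.5% of all probe sets. Against LiPS-57 and against LiPS-47, 6 of 6 were called (5 lower and 1 higher), beside 15.6% and 15.8%. The members are bright, with means above those of 74.3% to 97.0% of probe sets. Without probe sets below the 40th percentile of means, 5464, 5130 and 5129 of 17363 were called against LiPS-45, LiPS-57 and LiPS-47. These shares were larger than those over all probe sets, and 6 of 6 members were then called in each comparison. Lin28a, Lin28b, Trim71 and Igf2bp3 were called lower in all 3 comparisons, as were 4.57% of probe sets, and Hmga2 was called higher in all 3, as were 5.86%. The 3 comparisons share the LiPS-50 arrays, so they are not independent of each other. All 3 LiPS-50 arrays lay below the other 9 for 5 members (9.54% of probe sets did so) and above them for 1 member (8.81%). The median log2 difference of the 6 members was -0.37 against LiPS-45, -0.29 against LiPS-57 and -0.38 against LiPS-47. Over all probe sets the medians were 0.0002, -0.0002 and -0.014.

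Among LiPS-45, LiPS-57 and LiPS-47, 0 of 6 members passed in any pair by limma (0.266%, 0.0622% and 0.159% of all probe sets did). At an unadjusted p under 0.05, LiPS-45 had more Lin28b than LiPS-57 (0.15, 95% interval 0.0108 to 0.299, adjusted p = 0.598) and LiPS-47 (0.17, 0.0251 to 0.313, adjusted p = 0.470). Igf2bp3 was lower in LiPS-57 than in LiPS-47 at the same level (-0.18, 95% interval -0.336 to -0.0224, adjusted p = 0.667). The intervals of the other pairs included 0 and reached, for Hmga2, from -0.0416 to 0.355 for LiPS-45 minus LiPS-47.

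By line, the order of the means was LiPS-57, LiPS-47, LiPS-45 and LiPS-50 for Lin28a (10.20 ± 0.0138, 10.17 ± 0.0169, 10.14 ± 0.0134 and 9.70 ± 0.0273, SD, n = 3). For Lin28b it was LiPS-45, LiPS-57, LiPS-47 and LiPS-50 (8.13 ± 0.0725, 7.98 ± 0.101, 7.96 ± 0.0426 and 6.95 ± 0.0345). In both orders the step to LiPS-50 passed the test and the steps between the first 3 lines did not. Trim71 ran LiPS-45, LiPS-47, LiPS-57, LiPS-50, and Igf2bp3 ran LiPS-47, LiPS-45, LiPS-57, LiPS-50. Igf2bp1 ran LiPS-47, LiPS-57, LiPS-45, LiPS-50 by its brighter probe set and LiPS-45, LiPS-57, LiPS-47, LiPS-50 by the other. Hmga2 ran LiPS-50, LiPS-45, LiPS-57, LiPS-47. For each of these, neighbours other than the pair with LiPS-50 did not differ by the test, and for the brighter Igf2bp1 probe set the pair with LiPS-50 did not either.

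A limma F-test of any difference among the 4 lines called 6 of 6 members and 14.9% of all probe sets. Without probe sets below the 40th percentile of means, it called 6 of 6 members and 5159 of 17363 probe sets. With the replicate block it called 5 of 6, Igf2bp1 being lost (adjusted p 0.0682 in place of 0.0364). Over all 28939 probe sets the block gave 3935 calls in place of 4320. Leaving out 1 culture gave 4 to 6 members, beside 2855 to 4065 of all probe sets in place of 4320. Igf2bp1 was lost without any 1 of the LiPS-50 or LiPS-57 cultures, the first or the second LiPS-45 culture, or the first or the third LiPS-47 culture (adjusted p 0.0515 to 0.128). Hmga2 was lost without the first LiPS-50 culture (0.0631), and Trim71 without the second (0.0751) or the third (0.0973). With LiPS-50 left out, an alternative chosen after seeing the data, the F-test among the other 3 lines called 0 of 6 members (adjusted p 0.543 to 0.878, with Igf2bp3 at an unadjusted p under 0.05) and 0.211% of probe sets.

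**Figure D2:**
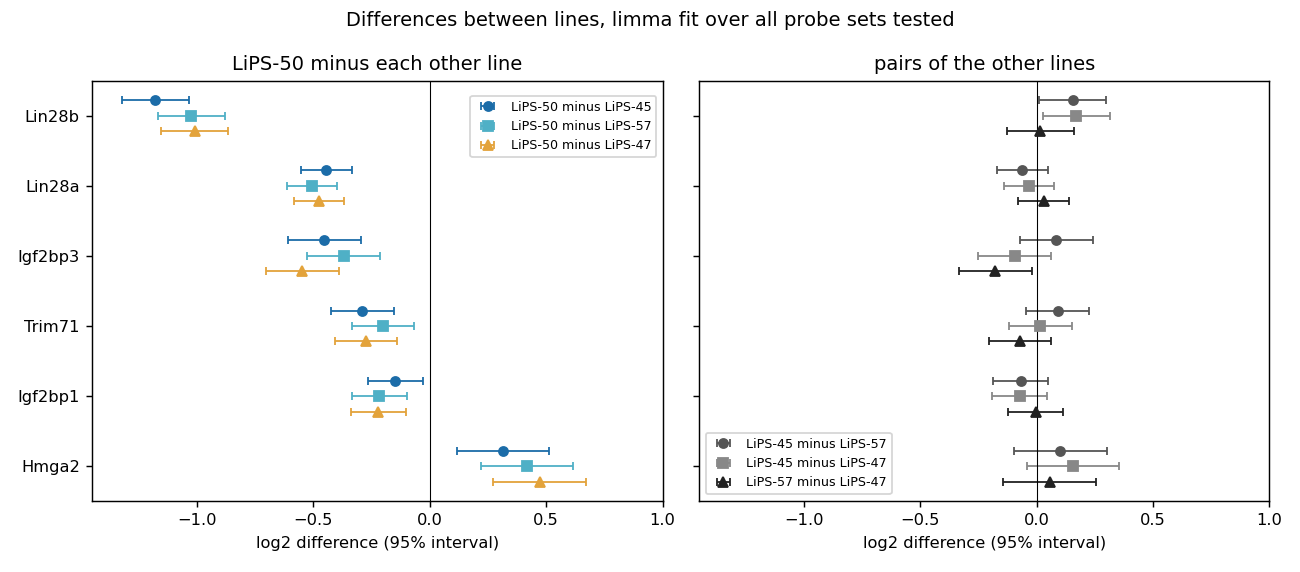
Log2 differences between lines with 95% intervals from the limma fit (horizontal axis) for the 6 members (rows), on the left LiPS-50 minus each other line and on the right the 3 pairs of other lines. On the left, Lin28b sits between -1.18 and -1.01 and Hmga2 between 0.32 and 0.47, while on the right all points lie near 0.

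The design text sets lines with competence against lines without it. Lin28b was 0.60 ± 0.201 (SE) higher in the 2 competent lines on the log2 scale, with the line as a random block (unadjusted p = 0.00988, limma adjusted p = 0.648). Lin28a was 0.24 ± 0.101 higher (unadjusted p = 0.0343, adjusted p = 0.648). The other members had adjusted p between 0.728 and 0.785. The random block applied 1 correlation, 0.183, to all probe sets. Lin28a and Lin28b varied far more between lines than between cultures of a line. Their SE and unadjusted p therefore count cultures as nearly independent and are likely too small for a contrast of 2 lines against 2. By limma, 0 of 6 members and 0% of all probe sets passed, and 7.69% of probe sets had an unadjusted p under 0.05. LiPS-47 holds Lin28a at 10.17 and Lin28b at 7.96, beside 10.20 and 7.98 in the competent line LiPS-57. Without LiPS-50 the difference by competence was 0.092 for Lin28b (limma adjusted p = 0.640). It changed sign for Lin28a, to -0.0016, and for Trim71, Igf2bp1, Igf2bp3 and Hmga2.

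Fibroblast and feeder markers and markers of primed epiblast moved with the LiPS-50 difference. Of 23 measured fibroblast and feeder markers, 22 were called higher in LiPS-50 against each other line (beside 8.18%, 8.16% and 8.48% of probe sets) and 0 lower. Their median log2 differences were 0.63, 0.62 and 0.80, and Vim, Fn1, Thbs1 and Acta2, the 4 with the highest means, were among them. Their summed intensity was 37779 to 42220 in the LiPS-50 arrays and 23664 to 32339 in the others. Of 13 primed epiblast markers, 9 were called lower in LiPS-50 in all 3 comparisons (beside 4.57% of probe sets) and 0 higher, with sums of 3615 to 3685 in LiPS-50 and 5472 to 5863 elsewhere. Of the fibroblast and feeder markers, 1 of 23 was at or below 5.21, the level under which 40% of probe set means lie, in the other 3 lines and 0 in LiPS-50. The part of either marker group in the members' differences was not tested. In bulk RNA, fewer cells that hold a transcript and less transcript per cell cannot be told apart.

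Feeder marker levels also varied between cultures of 1 line. The median of the 23 markers was 8.52, 8.80 and 8.43 in the cultures of LiPS-45, 8.56, 8.69 and 8.69 in those of LiPS-57, 8.53, 8.65 and 8.26 in those of LiPS-47, and 9.41, 9.25 and 9.38 in those of LiPS-50. The highest Hmga2 value in LiPS-45 (9.05) and in LiPS-50 (9.35) and the lowest in LiPS-47 (8.60) fell in the cultures with the highest, highest and lowest feeder median of their line. LiPS-57 ran the other way, with Hmga2 at 8.81, 8.77 and 8.74 beside feeder medians of 8.56, 8.69 and 8.69. As deviations from the line means over 12 arrays, Hmga2 correlated with the feeder median at r = 0.768, Lin28a at -0.0199, Lin28b at -0.309, Trim71 at -0.177, Igf2bp1 at -0.564 and Igf2bp3 at 0.166. With the median of the primed epiblast markers, r was 0.0225 for Hmga2, 0.532 for Lin28a and 0.119 for Lin28b. It was -0.681 for Trim71, -0.355 for Igf2bp1 and 0.133 for Igf2bp3. The values of a line share its culture conditions and each array's labelling, so these r describe the arrays only. Pluripotency markers differed in both directions in LiPS-50: Dppa5a was higher by 0.26, 0.21 and 0.24 than in LiPS-45, LiPS-57 and LiPS-47, and Tdgf1 fell by 0.23, 0.27 and 0.22 (limma adjusted p from 0.00706 to 0.0311 for both genes). Pou5f1, a core pluripotency factor, differed by -0.18, -0.16 and -0.13 (limma adjusted p = 0.0359, 0.0605 and 0.146).

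**Figure D3:**
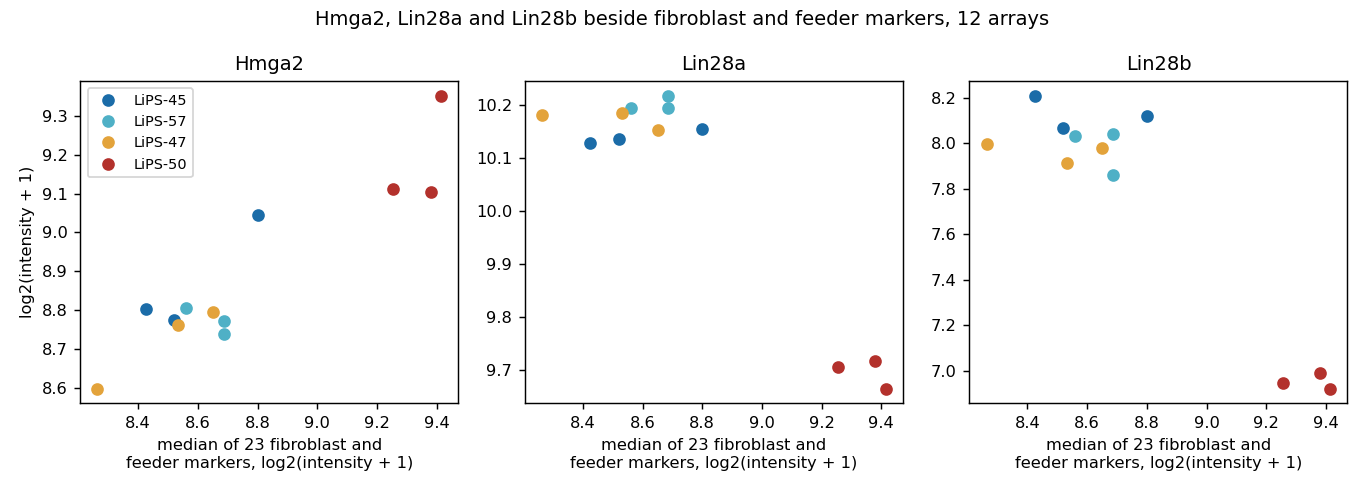
Log2(intensity + 1) of Hmga2, Lin28a and Lin28b (vertical axes) against the median of 23 fibroblast and feeder markers (horizontal axes, same unit), 1 point per array and 1 colour per line. LiPS-50 stands apart in each panel. Within LiPS-45, LiPS-47 and LiPS-50 the highest Hmga2 value lies at the highest marker median, and within LiPS-57 at the lowest.

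The let-7 hairpin genes themselves showed no called difference. Of 12 genes, 10 had a probe set of their own. By limma 0 of 10 passed in any pair or in the F-test. Of all probe sets, 14.9% passed the F-test. In the pairs of LiPS-50 with LiPS-45, LiPS-57 and LiPS-47, 16.5%, 15.6% and 15.8% passed, so 0 of 10 is not far from these shares. The lowest adjusted p of the hairpins was 0.123, and 2 of 60 gene and pair combinations had an unadjusted p under 0.05. The differences lay between -0.32 and 0.29 in all 6 pairs. These probe sets read RNA that holds the hairpin; mature let-7 was not measured.

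Most hairpin readings were dim. In every line 6 of 10 lay at or below 5.21, which limits the differences that could be seen. Mirlet7d, printed above with its GGAG loop, read 6.18, 5.94 and 6.55 in the cultures of LiPS-45, 6.07, 6.04 and 6.14 in those of LiPS-57, 6.44, 6.33 and 6.01 in those of LiPS-47, and 6.08, 6.12 and 6.10 in those of LiPS-50. Mirlet7i read 5.97, 6.02 and 5.72 in the cultures of LiPS-45, 5.95, 5.81 and 6.00 in those of LiPS-57, 6.36, 5.99 and 6.04 in those of LiPS-47, and 6.07, 5.99 and 6.11 in those of LiPS-50. For both, the LiPS-50 values fell inside the range of the other lines. Mirlet7a-1 had the smallest F-test p of the list (adjusted p = 0.288), with line means of 5.19 for LiPS-45, 5.14 for LiPS-57, 5.15 for LiPS-47 and 5.32 for LiPS-50.

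Among 20 measured genes that cut, load or degrade microRNAs, 4 were called lower in LiPS-50 in all 3 comparisons, beside 4.57% of probe sets. Of the 20, 5, 4 and 4 were called lower against LiPS-45, LiPS-57 and LiPS-47 (beside 8.30%, 7.48% and 7.31% of probe sets). Called higher were 0, 0 and 1 (beside 8.18%, 8.16% and 8.48%). The list's median differences were -0.092, -0.035 and -0.025. Drosha, the nuclear enzyme that releases hairpins from primary transcripts, fell by 0.31, 0.35 and 0.26 on the log2 scale (SE 0.0533; limma adjusted p = 0.00185, 8.99e-04 and 0.00562). Its LiPS-50 cultures read 9.58, 9.47 and 9.48, below all others, of which the lowest read 9.75. Ago1, which carries mature microRNAs, fell by 0.27, 0.27 and 0.25. Khsrp, which aids let-7 processing, fell by 0.21, 0.21 and 0.20, and Tarbp2, a partner of Dicer, fell by 0.17, 0.22 and 0.18. Prkra, another Dicer partner, passed against LiPS-45 only (-0.32, limma adjusted p = 0.0179), and whether its difference varies between comparisons was not tested. Tut7, which adds uridines to let-7 precursors, was higher than in LiPS-47 (0.23, limma adjusted p = 0.0485). Tut4, which does so with Lin28a, read 8.42 ± 0.0396, 8.27 ± 0.135, 8.26 ± 0.0606 and 8.37 ± 0.0882 in LiPS-45, LiPS-57, LiPS-47 and LiPS-50 and did not pass in any pair.

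Other reported let-7 targets were called in both directions. Of 22 measured, 8, 9 and 10 were called lower in LiPS-50 against LiPS-45, LiPS-57 and LiPS-47 (beside 8.30%, 7.48% and 7.31% of probe sets). Called higher were 5, 3 and 4 (beside 8.18%, 8.16% and 8.48%). In all 3 comparisons 8 were called lower and 3 higher, beside 4.57% and 5.86% of probe sets, and the list's median differences were -0.089, -0.092 and -0.062. Cdk6, a cell cycle kinase, read 9.45, 9.44 and 9.42 in the cultures of LiPS-45, 9.51, 9.38 and 9.31 in those of LiPS-57, 9.43, 9.39 and 9.42 in those of LiPS-47, and 8.74, 8.47 and 8.59 in those of LiPS-50. The LiPS-50 cultures were all below the others, by 1.79-fold, 1.74-fold and 1.76-fold on average (limma adjusted p = 1.62e-05, 3.03e-05 and 2.21e-05). Nr6a1, an orphan nuclear receptor of early embryos, fell by 0.75, 0.64 and 0.75, and Mycn, a growth-promoting transcription factor, fell by 0.61, 0.59 and 0.49. Arid3b, a DNA-binding protein, fell by 0.40, 0.39 and 0.53, and the signalling GTPase Nras fell by 0.39, 0.33 and 0.32.

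Ccnd2, Ccnd1 and Igf2 rose. Ccnd2, a D-type cyclin, read 10.72, 11.01 and 10.76 in the cultures of LiPS-45, 10.85, 10.89 and 10.81 in those of LiPS-57, 10.83, 10.81 and 10.46 in those of LiPS-47, and 11.55, 11.32 and 11.51 in those of LiPS-50. The LiPS-50 cultures were above all others, with differences of 0.63, 0.61 and 0.76 (limma adjusted p = 0.00197, 0.00254 and 5.16e-04). As with Hmga2, the highest LiPS-45 culture was the second and the lowest LiPS-47 culture the third. In LiPS-57 the highest culture was the second for Ccnd2 and the first for Hmga2. In LiPS-47 the highest was the first for Ccnd2 and the second for Hmga2. Ccnd1, another D-type cyclin (0.26, 0.24 and 0.28), and the growth factor gene Igf2 (0.68, 0.56 and 0.77), the other targets called higher in all 3, were named after their values were seen.

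**Figure D4:**
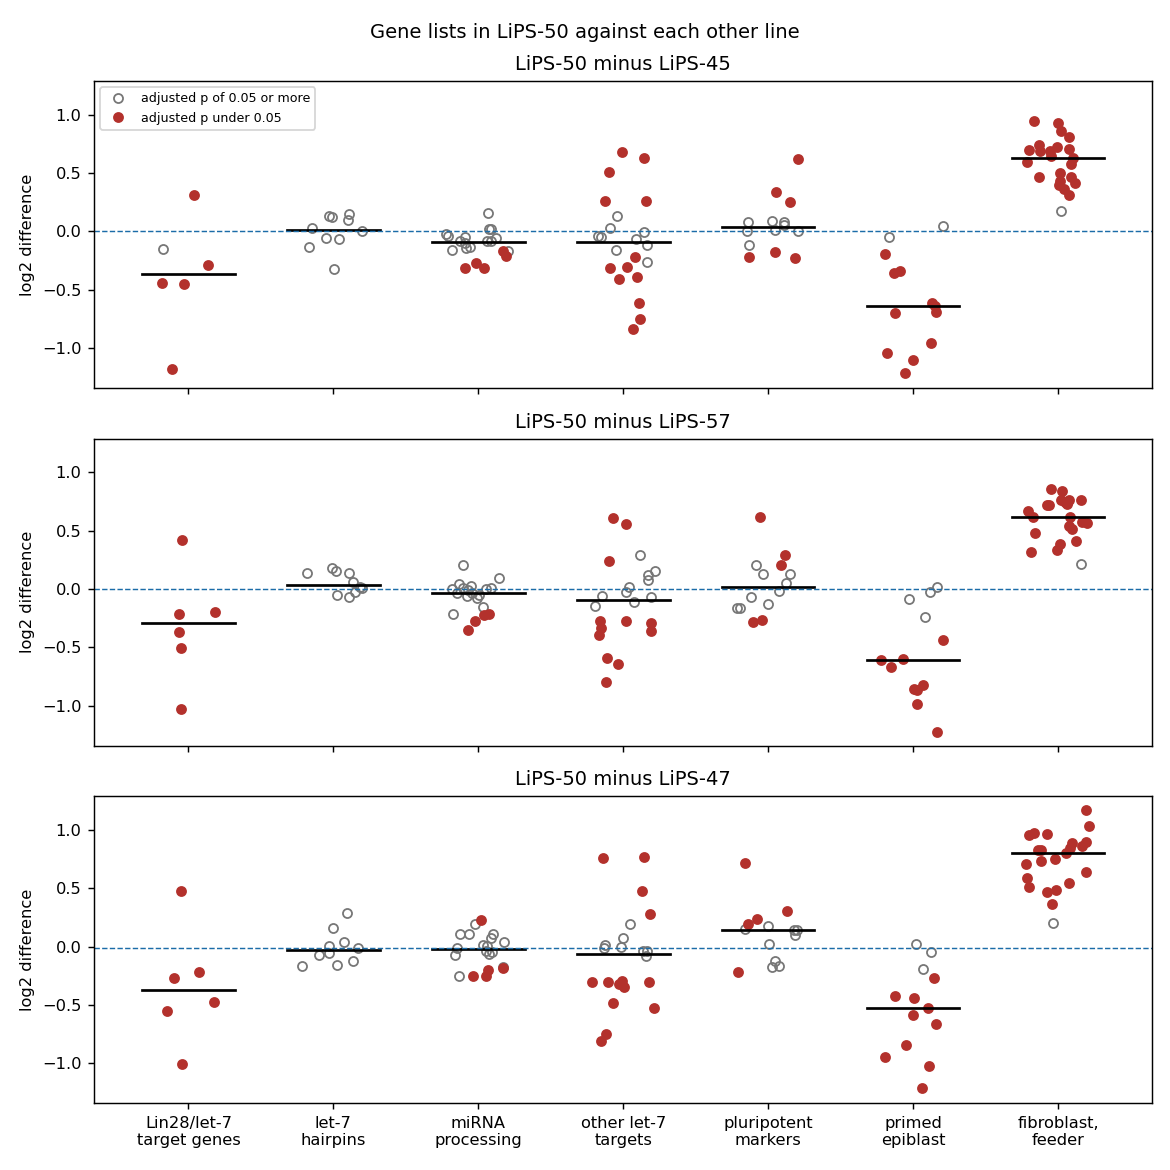
Log2 differences of LiPS-50 against each other line (vertical axes, 1 panel per line), 1 point per gene, by gene list, filled where the limma adjusted p was under 0.05; black bars are list medians and the dashed line the median of all probe sets. The let-7 hairpins sit around 0 with no filled point, the members and other let-7 targets hold points on both sides, and 22 of 23 fibroblast and feeder markers are filled and above 0.

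The genes whose pattern over the 12 arrays was most like a member's were found by Pearson correlation among 12947 genes with a mean at or above 5.21. For Lin28a they were Nt5dc2 (r = 0.993), Slc39a8 (0.991) and Slc27a2 (0.990). For Lin28b they were Sox11 (0.995), a transcription factor of neural progenitors, Slc6a15 (0.989) and Ivns1abp (0.989). Zfp141, Frem2 and Sin3a were nearest to Trim71 (0.967 to 0.955), Stk40, Pclaf and Mpzl2 to Igf2bp1 (0.969 to 0.967), and Hk2, Trmt10a and Sfxn1 to Igf2bp3 (0.977 to 0.973). For Hmga2 they were Antxr1 (0.973) and the collagen genes Col6a3 (0.971) and Col12a1 (0.971). In each gene named, the LiPS-50 mean lay outside the means of the other 3 lines. Among the members, correlations of deviations from the line means ran from -0.333 for Lin28a with Hmga2 to 0.661 for Lin28a with Igf2bp3.

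Promoters are shown for Lin28b and Igf2bp3, which fell in LiPS-50, and for Hmga2, which rose, to set their letters side by side. RefSeq sequences (assembly GRCm38.p6) were searched in the 250 bases before the annotated start for 5 motifs on both strands. These were the GC box GGGCGG (32.7% of 32851 promoters hold it), the E-box CACGTG (6.0%), the CCAAT box (33.8%), TATAAA (12.4%) and the octamer ATGCAAAT (1.6%). Matches are in capitals, with ATTGG and CCGCCC the reverse complements of CCAAT and GGGCGG.
Lin28b (chr10:45470202-45470451, minus strand): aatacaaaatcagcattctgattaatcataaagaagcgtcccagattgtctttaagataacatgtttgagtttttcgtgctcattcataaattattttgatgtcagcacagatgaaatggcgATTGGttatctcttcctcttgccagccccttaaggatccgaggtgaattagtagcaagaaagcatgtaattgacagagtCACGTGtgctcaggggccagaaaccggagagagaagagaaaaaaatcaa
Igf2bp3 (chr6:49214955-49215204, minus strand): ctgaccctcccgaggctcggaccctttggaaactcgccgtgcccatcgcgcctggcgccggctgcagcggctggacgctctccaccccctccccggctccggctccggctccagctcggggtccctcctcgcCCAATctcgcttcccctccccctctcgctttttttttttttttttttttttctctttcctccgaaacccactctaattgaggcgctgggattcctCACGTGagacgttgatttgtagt
Hmga2 (chr10:120476470-120476719, minus strand): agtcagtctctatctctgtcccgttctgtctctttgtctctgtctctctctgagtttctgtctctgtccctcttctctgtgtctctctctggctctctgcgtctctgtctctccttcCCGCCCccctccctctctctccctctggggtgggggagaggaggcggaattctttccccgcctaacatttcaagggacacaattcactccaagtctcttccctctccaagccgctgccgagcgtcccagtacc
Lin28b and Igf2bp3 each had 1 E-box and 1 CCAAT box. Hmga2 had 1 GC box, as did Trim71, and Lin28a had none of the 5. Igf2bp2, whose expression was not analysed, had 2 GC boxes and 77.2% G and C. Igf2bp1 had no promoter entry. Lin28b held 39.2% G and C and Igf2bp3 60.4%, with a median of 52.4% over all promoters. A match describes these letters and says nothing about binding.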

How the data were processed

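Gene expression was measured on 12 whole-transcript microarrays, 1 per culture, with biotin-labelled cDNA made from total RNA, per the labels. The deposited table holds 1 linear intensity per probe set and array (3.06 to 16531). The submitters' processing notes name GCOS 1.4; how probes were summarised, corrected for background and normalized is not given in the sources used here. Quartiles of the arrays differed by at most 0.112 in log2, so the deposited intensity scale was kept. Tests used log2(value + 1), a scale that shrinks differences of dim genes. Of 35556 probe sets, 6617 numbered below the lowest annotated one were left out as a likely control block; of the 28939 tested, 21789 list 1 gene, 1621 several and 5529 none, and only those with 1 gene were named. No pair of arrays shared over 0.608% of values. The number of arrays, not a read depth, limits the precision.

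Pairs of lines and the F-test came from 1 fit of 4 line means with limma 3.58.1 in R 4.3.3 (8 residual degrees of freedom, 4.06 from the prior; two-sided, Benjamini-Hochberg over all probe sets, threshold 0.05). For competence the line was a random block (consensus correlation 0.183). The p-values of the pairs and of the F-test reflect how cultures of 1 line vary. Those for competence mix this spread with the spread between lines. The script was tested on simulated data. The members, gene lists and markers were chosen with earlier results of these data known. The text names the members, up to 6 genes per list with the smallest F-test p, up to 4 markers per list with the highest mean, and the 3 genes most like each member. Tut4, Ccnd1 and Igf2 fall outside this rule and were named after their values were seen. Alternatives tried were a replicate block, median centring, quantile normalization, a pseudocount of 16, a filter on dim probe sets, the control block kept, the mean of a gene's probe sets, only the 2 lines compared, competence without the random block, each array left out and LiPS-50 left out.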

Additional observations from a re-analysis of the deposited data

Results flagged for a closer look

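Among the 6 cultures of the competent lines, Hmga2 in the second LiPS-45 culture stood apart from the others. It read 9.05, while the other 5 lay between 8.74 and 8.81, and its gap to the next culture was 0.781 of the whole range of the group. The limit used for such gaps is one that chance alone passes in about 1 in 20 groups, and the 6 cultures here come from 2 lines. The same culture had the highest median of fibroblast and feeder markers of the 6, 8.80; their part in the Hmga2 value was not tested.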

How the results depend on the processing

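Lin28a, Lin28b and Igf2bp3 stayed called lower in LiPS-50 than each other line in all 20 alternatives, Trim71 did so against LiPS-45, and Hmga2 stayed called higher than in LiPS-57 and LiPS-47. Trim71 against LiPS-57 was called in 7 of 20 (adjusted p 0.0537 with the replicate block), Trim71 against LiPS-47 in 19 of 20 and Hmga2 against LiPS-45 in 14 of 20. Igf2bp1 against LiPS-45 became called with median centring (adjusted p = 0.0481), a pseudocount of 16 (0.0297), without dim probe sets (0.0338) and with the mean of its probe sets (0.00215); against LiPS-57 it was lost without the third LiPS-50 culture or the first or second LiPS-57 culture, and against LiPS-47 with only the 2 lines fitted or without the third LiPS-47 culture. With the replicate block the F-test called 5 of 6 members, Igf2bp1 being lost (adjusted p = 0.0682), and 3935 probe sets in place of 4320. Beside Igf2bp1 in the F-test and Trim71 against LiPS-57, the block changed no call of a member. Same-numbered cultures did not deviate together (median r 0.0117, -0.169 to 0.121 over 18 pairs), so the numbers do not pair the samples.

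With the spread between cultures as the only error, competence called 2 of 6 members, Lin28a (adjusted p = 0.00206) and Lin28b (1.56e-05), and 1789 probe sets in place of 0. With LiPS-50 left out, the F-test called 0 of 6 members and 61 probe sets in place of 4320, and the differences by competence turned to -0.0016 for Lin28a, -0.029 for Trim71, 0.11 for Hmga2, -0.040 for Igf2bp1 and -0.14 for Igf2bp3. Other reversals were of uncalled differences. LiPS-57 minus LiPS-47 turned for Igf2bp1 to 0.0082 with median centring, 0.083 with the mean of its probe sets, and 0.0042, 0.012 and 0.014 without 1 culture (range -0.031 to 0.014); for Lin28b to -0.0097, -0.013 and -0.017 (range to 0.073); and for Hmga2 to -0.0047 (range to 0.093). LiPS-45 minus LiPS-47 turned for Trim71 to -0.0016 with quantile normalization and -0.027 without 1 culture (range to 0.050), and for Igf2bp1 to 0.049 with the mean of its probe sets. The cause was not tested.

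Over all probe sets, LiPS-45 against LiPS-47 gave 18 calls, 49 with a pseudocount of 16, 50 without dim probe sets and 3 with only the 2 lines fitted. LiPS-57 against LiPS-47 gave 46, and 25 with the replicate block, 28 with the control block kept, 19 with only the 2 lines fitted and 29 without LiPS-50. LiPS-45 against LiPS-57 gave 77, and 49 with only the 2 lines fitted. Leaving out 1 culture gave 6 to 44, 23 to 61 and 41 to 70 calls in these pairs (44 and 61 without the third LiPS-47 culture), 3106 in place of 4771 for LiPS-45 against LiPS-50 without the third LiPS-45 culture, and 2855 in place of 4320 for the F-test without the first LiPS-50 culture. Dim signal limits the let-7 hairpins.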
